A study of Oryctolagus cuniculus with 12 samples.

Results

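The comparison asked which transcripts of the rabbit thoracic aorta differed only while a coarctation, a fixed narrowing of the vessel, was in place. The 4 CoA arrays were set against 7 arrays from aortas under normal or restored blood pressure (BP), the 4 Control arrays and Corrected replicates 1, 2 and 4, so that 11 of the study's 12 arrays were used. The arrays were chosen by group label, and Corrected replicate 3 was left out because its label and the methods exclude it for its distribution of intensities. Each array held RNA from the ring of thoracic aorta (4 mm long) of 1 male New Zealand white rabbit at 32 weeks of age. CoA rabbits had a permanent silk suture tied around the aorta at about 10 weeks and about 1 kg, which imposed a BP gradient of 20 mmHg. Corrected rabbits had the same operation with degradable Vicryl suture, so that their narrowing was released in life and left a modest residual one. Control rabbits were not operated on and no sham group is described, which means that surgery itself separates Control from both of the other groups.

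The wall above a coarctation carries a raised and more pulsatile pressure. Arterial smooth muscle is known to answer raised wall stress with growth, with matrix synthesis and with shifts in calcium handling and contractile tone. A ring of aorta holds smooth muscle and elastin in the media, an endothelium, and an outer coat of fibroblasts, nerve endings, small vessels, blood and perivascular fat, and its RNA mixes them all.

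The label of the tissue was borne out by smooth muscle transcripts on all 11 arrays. The log2 signal of ACTA2, smooth muscle actin, was 14.47 to 16.40 and that of MYH11, smooth muscle myosin, was 12.46 to 14.55. Feature Extraction flagged 55.8% to 69.7% of spots as well above background on the CoA arrays, against 69.7% to 77.7% on the Control arrays and 61.8% to 68.5% on the Corrected arrays used. Arrays with the same scan time in the file headers were taken to lie on 1 slide. By this inference the 4 CoA arrays lay alone on 1 slide and the other 7 on 3 slides, so slide and ongoing coarctation cannot be told apart within slides. CoA replicate 2 and Corrected replicate 4 stood apart, with a median absolute log2 difference of 0.678 and 0.616 from their nearest array, against 0.149 to 0.412 for the other 9 arrays. Control replicates 3 and 4 were the closest pair (0.149, where the 14 other pairs within a group reached up to 0.922) and were kept as 2 rabbits. Of 43603 probes, 3368 (7.72%) carried an accession that gave a gene symbol. A probe entered the tests if 8 or more of the 12 arrays detected it, which left 27283, 2380 of them with a symbol, for 958 genes. This filter could admit probes detected mostly in the pooled group, but none detected only on the 4 CoA arrays.

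In CoA vs the pooled group, 1249 of the 27283 probes (4.58%) passed a fold change (FC) over 2 with an unadjusted p under 0.05 in limma, 537 higher (1.97%) and 712 lower (2.61%). Probes and genes that passed this criterion are described below as risen or fallen. No probe passed a Benjamini-Hochberg adjusted p of 0.05 in limma, the lowest adjusted p being 0.543. With array weights in limma 6626 probes passed it, and without CoA replicate 3 there were 2. The array weights, estimated from these same data, were 0.165 for CoA replicate 2 and 0.235 for Corrected replicate 4. They were 3.16 and 2.95 for Control replicates 3 and 4, and 2.83 and 3.04 for CoA replicates 1 and 4. That fit thus nearly set aside the arrays that stood apart and counted the closest pair among the most, so its 6626 probes are no separate support. An unadjusted p under 0.05 was reached by 2471 probes (9.06%), where 1364 would on average if no probe differed. All 4 CoA arrays lay above or below all 7 pooled arrays for 322 probes (1.18%), 211 above (0.773%) and 111 below (0.407%). Of the 322, 135 were also among the 1249, which is 10.8% of these. Leaving out CoA replicate 2 lowered the count of 1249 to 801, and leaving out CoA replicate 3 raised it to 2033. The median log2 difference over all probes tested was 0.04.

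Whether Control and Corrected, pooled here, were alike was asked for each probe. Of the 1249 probes, 962 (77.0%) had Control and Corrected means within 2-fold of each other, against 89.9% of all probes tested. For 33 of the 1249 probes (2.64%) the 95% interval of the difference itself lay within 2-fold, against 6895 (25.3%) of all probes tested. The groups were thus shown to be alike within that limit for few of the 1249, a smaller share than among all probes. The other 287 probes had means over 2-fold apart. Among these, Corrected lay on the same side of Control as CoA did for 262 probes (91.3%) and on the opposite side for 25. These differences share the Control arrays, and of all 2761 tested probes with Control and Corrected over 2-fold apart, 2112 (76.5%) had Corrected on the side of CoA. Changes particular to ongoing coarctation were taken as probes over 2-fold in the same direction from the Control mean and from the Corrected mean, with these means within 2-fold. There were 589 such probes (2.16%), 225 higher (0.825%) and 364 lower (1.33%) in CoA, of which 83 also had the CoA arrays outside the range of all 7 others. In Corrected vs Control itself, 1471 probes (5.39%) were over 2-fold with an unadjusted p under 0.05 (2278 had such a p at any fold) and none passed adjustment, the lowest adjusted p in limma being 0.240.

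**Figure D1:**
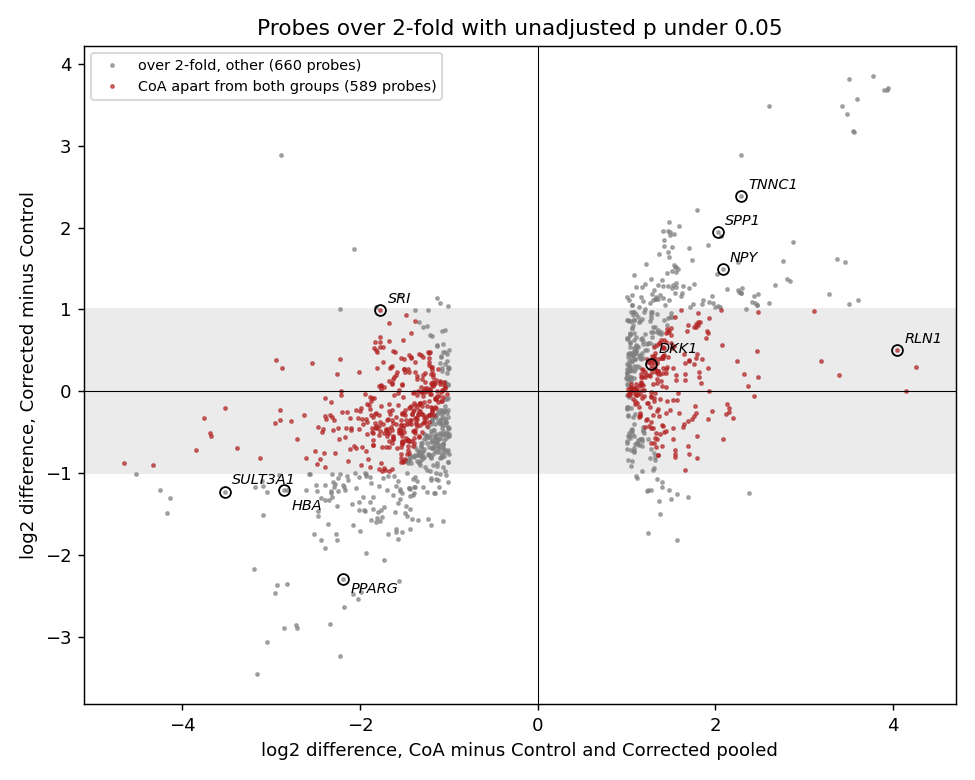
Each point is 1 of the 1249 probes over 2-fold with an unadjusted p under 0.05, with the log2 difference of CoA from the pooled group on the x axis and the log2 difference of Corrected from Control on the y axis. The grey band marks Control and Corrected means within 2-fold, red points are the 589 probes for which CoA stood over 2-fold from both groups, and points outside the band lie mostly at upper right (TNNC1, SPP1) and lower left (PPARG, HBA), where Corrected lay on the same side of Control as CoA.

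Among named genes, 49 of 958 (5.11%, against 4.58% of probes) changed in CoA vs the pooled group, 17 higher and 32 lower. Each gene stands by its brightest tested probe. For 20 genes CoA stood apart from both groups, 8 higher (among them RLN1, SLC4A4, PGR, CNMD, PLA2R1, DKK1 and RAG2) and 12 lower (among them BSG, SRI, SLC12A4, PSMD4, BPGM, ODF2, NXT2, HBB2, EIF4G1, HP and PEBP1). For another 13 genes Control and Corrected were within 2-fold but CoA was under 2-fold from 1 of them, 3 higher (SCGB1D, EFCAB10 and PLN) and 10 lower (LDHA, FKBP4, ALDOA, PGM1, OXTR, HMGB1, LOC100350621, ADCY5, TNNI2 and VDAC3). In the remaining 16 genes Control and Corrected differed by over 2-fold, with the Corrected mean between the Control and CoA means in all 16, an order measured with shared Control arrays on genes already called. These were NPY, SPP1, TNNC1, IL1A, PAPSS2 and KCNB2, which were higher in CoA, and SULT3A1, HBA, TIMP4, ADIPOQ, PPARG, DSG4, THRSP, PTGER3, SLC25A20 and SPRR3, which were lower. The set depends on the probe and the limit. Another called probe of IL1A had Corrected minus Control at only 0.18. SRI, which fell, just missed the set with Corrected on the far side of Control from CoA (0.995), and its other probes gave 0.86 to 1.18. For none of the 49 did the 95% interval of Corrected minus Control lie within 2-fold. The adjusted p of the 49 genes in limma was 0.543 to 0.550. The two-sided exact permutation of the arrays gave a p under 0.05 for 33 of them and for 82 of all 958 genes. With 4 arrays against 7 it can reach 0.00303 at the lowest. It used the arrays by which the 49 genes were called, so it is no separate support for them. For genes named because their CoA arrays lay outside the range of the others, a low p follows from that choice.

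Secreted factors and receptors are described first among the genes that rose. DKK1, a secreted inhibitor of Wnt signaling, had a log2 signal of 7.23, 5.83, 6.44 and 6.45 on CoA arrays 1 to 4, of 4.97 to 5.23 on the 4 Control arrays, and of 5.57, 5.34 and 5.28 on Corrected arrays 1, 2 and 4. All 4 CoA arrays were above all 7 others. Every Corrected array was in turn above every Control array, though by a small margin. The rise was 1.28 on the log2 scale (SE 0.26), an FC of 2.43, with an exact permutation p of 0.00303. Corrected minus Control was 0.33 (95% interval -0.36 to 1.02), which passes 2-fold at its upper end by a small margin. The rise of DKK1 fell below the criterion with normexp background correction, where it was 0.62.

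PLA2R1, the cell surface receptor for secreted phospholipases A2, was similar in size. Its log2 signal was 9.12, 8.87, 8.87 and 9.55 in CoA, 7.83, 7.89, 7.46 and 7.46 in Control and 7.69, 8.73 and 7.71 in Corrected. The lowest CoA array was above the highest other array, Corrected replicate 2, and that array alone came near the CoA range. CoA exceeded the pooled group by 1.28 (SE 0.27; exact permutation p = 0.00303), and Corrected exceeded Control by 0.38 (95% interval -0.32 to 1.09). Of its 3 probes, 2 were called and the differences were 0.22 to 1.32. This call held under every alternative that was run.

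PGR, the progesterone receptor, which vascular smooth muscle also carries, read 6.71, 6.37, 5.18 and 5.39 in CoA, 4.96, 5.12, 4.56 and 3.95 in Control and 4.10, 5.07 and 4.13 in Corrected. CoA replicates 3 and 4 were only just above the highest Control array, while replicates 1 and 2 were well clear of it. The difference was 1.36 (SE 0.36; exact permutation p = 0.00606) and was 0.51, not passing, with normexp, and Control and Corrected differed by -0.21. RLN1, relaxin, a peptide hormone that loosens connective tissue and widens vessels, had the largest rise of a named gene. Its log2 signal was 15.33, 10.50, 7.14 and 11.81 in CoA, 8.24, 9.21, 5.38 and 4.89 in Control and 5.96, 9.97 and 6.37 in Corrected. The groups overlapped, since CoA replicate 3 was below 2 Control arrays and Corrected replicate 2, and the arrays of each group were far apart. The mean difference was 4.05 (SE 1.38; exact permutation p = 0.0303), an FC of 16.6, and its 3 probes gave 4.05 to 4.26. Without CoA replicate 1 it was 2.67 and no longer passed, and without CoA replicate 3 it was 5.40. Corrected minus Control was 0.50, with a 95% interval from -3.36 to 4.37 that leaves the pair almost unconstrained.

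NPY, SPP1 and PAPSS2 rose with the Corrected mean over 2-fold above Control. NPY, a peptide that sympathetic nerve endings release with noradrenaline and that constricts vessels, read 5.49, 8.02, 6.44 and 8.48 in CoA, 4.53, 4.62, 4.08 and 4.30 in Control and 5.66, 6.10 and 5.87 in Corrected. Every CoA and Corrected array was above every Control array, and CoA replicate 1 was below all 3 Corrected arrays. The difference from the pooled group was 2.08 (SE 0.59; exact permutation p = 0.0182), and all 5 NPY probes rose, by 2.08 to 3.61. With normexp the difference was 0.96 and did not pass. Corrected exceeded Control by 1.49 (95% interval 0.17 to 2.82; exact permutation p = 0.0286, the lowest that 3 arrays against 4 allow), so that Corrected also stood above Control.

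SPP1, osteopontin, a matrix phosphoprotein made by activated smooth muscle cells and macrophages, behaved likewise. Its log2 signal was 13.43, 13.47, 12.48 and 14.37 in CoA, 12.48, 10.83, 9.60 and 9.40 in Control and 11.89, 13.06 and 12.62 in Corrected. The Corrected arrays overlapped the lower end of CoA and the upper end of Control. The difference from the pooled group was 2.03 (SE 0.72; exact permutation p = 0.0364), that from Control alone was 2.86, and Corrected exceeded Control by 1.95 (95% interval 0.41 to 3.49). Without CoA replicate 4 it was 1.72 and did not pass. PAPSS2, which makes the sulfate donor used to sulfate proteoglycans, read 10.61 to 11.69 in CoA, 8.65 to 10.06 in Control and 9.12, 10.69 and 11.42 in Corrected, so that the Corrected arrays spanned the gap between the other groups. All 5 of its probes rose, the brightest by 1.32 (SE 0.49; exact permutation p = 0.0485), and without CoA replicate 1 that rise was 1.12 and did not pass.

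SCGB1D, a small secreted protein of the secretoglobin family, was dim, at 4.79 to 6.15 in CoA, 4.11 to 4.38 in Control and 2.73 to 4.51 in Corrected. The groups did not overlap (difference 1.19, SE 0.37; exact permutation p = 0.00303), and the call was lost without CoA replicate 2 (0.88) or without Corrected replicate 1 (0.97) and with normexp (0.33).

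Of the genes for ion transport that rose, SLC4A4, the sodium bicarbonate cotransporter, stood apart from both groups. It read 7.57, 7.77, 6.46 and 6.95 in CoA, 5.98, 7.03, 5.34 and 5.44 in Control and 3.87, 6.47 and 6.04 in Corrected, so that only Control replicate 2 and Corrected replicate 2 reached the CoA range. The difference was 1.45 (SE 0.51; exact permutation p = 0.0333), 2 of 4 probes were called, and the probes ranged from -0.08 to 1.45. It did not pass with normexp (0.67). KCNB2, a voltage-gated potassium channel, separated Control from both operated groups. CoA read 7.73 to 8.22, Corrected 8.20, 7.11 and 7.66, and Control 6.28 to 6.93, with no overlap between Control and either operated group. CoA exceeded Control by 1.56 and Corrected by 0.39, and Corrected exceeded Control by 1.18 (95% interval 0.50 to 1.85; exact permutation p = 0.0286). Its call against the pooled group (1.06) was lost without Control replicate 2 (0.97), 3 (0.94) or 4 (0.94).

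CNMD, chondromodulin, a cartilage glycoprotein that inhibits vessel growth, read 11.12, 10.03, 11.14 and 10.38 in CoA, 9.41, 10.90, 8.79 and 8.59 in Control and 9.04, 8.43 and 10.08 in Corrected. Control replicate 2 and Corrected replicate 4 reached into the CoA range, and the other 5 arrays stayed below it. The rise was 1.35 (SE 0.46; exact permutation p = 0.0273) and passed under every alternative run. Corrected minus Control was -0.24 (95% interval -1.51 to 1.04).

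**Figure D2:**
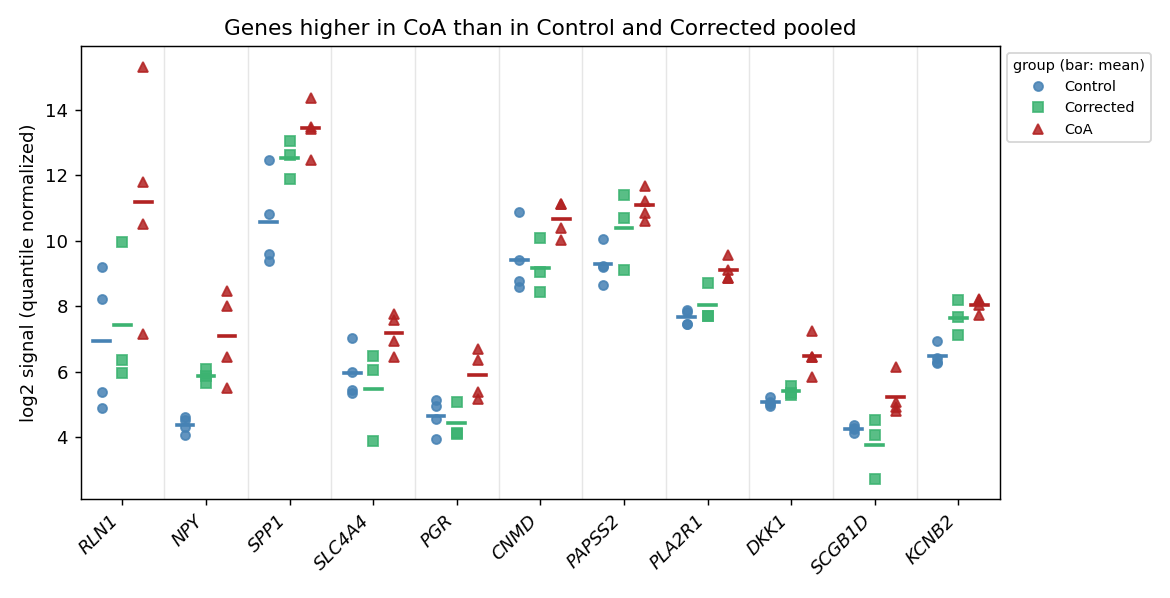
Quantile normalized log2 signal of 11 named genes that rose in CoA, with 1 point per array in each group (blue circles Control, green squares Corrected, red triangles CoA) and a bar at each group mean. For DKK1 and PLA2R1 all CoA points lie above those of both groups, for PLA2R1 only just above 1 Corrected point. For NPY, SPP1 and KCNB2 the Corrected mean lies between the means of Control and CoA while the Corrected points overlap those of CoA. For RLN1 the CoA points spread from 7.14 to 15.33.

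The other genes that rose were TNNC1, IL1A, RAG2, EFCAB10 and PLN. TNNC1, the troponin C of heart and slow muscle, had one of the 3 largest gaps between Control and Corrected. It read 12.32, 16.21, 12.39 and 11.56 in CoA, 8.83 to 11.11 in Control and 12.84, 10.55 and 13.19 in Corrected. Corrected replicates 1 and 4 were above 3 of the 4 CoA arrays, and CoA replicate 2 was far above all. The difference of 2.29 (SE 1.01; exact permutation p = 0.0818) did not pass without any 1 of the Control arrays (1.96 to 2.34), CoA replicate 2 (1.26) or Corrected replicate 2 (2.24), and Corrected exceeded Control by 2.38.

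Summed muscle marker signal was highest on that array. The sums took in every marker with a probe on the array, also those without a tested probe. For the 6 cardiac muscle markers the sum was 10579 to 126624 in CoA and 3644 to 20536 in the pooled group. For the 13 skeletal muscle markers it was 4718 to 121050 against 1070 to 13394, with CoA replicate 2 highest in each. TNNC1 is on both lists and made up most of both sums on CoA replicate 2, so the sums are no separate check on TNNC1. Gene by gene, 6 of the 9 skeletal markers tested were below 0 in CoA vs the pooled group (median -0.14). CKM, muscle creatine kinase, read 13.28 on CoA replicate 2 and 3.11 to 6.43 on the other 10 arrays. Among the cardiac markers TNNC1 and PLN rose and none fell, and among the skeletal markers TNNC1 rose and TNNI2 fell. PLN, phospholamban, the brake on the sarcoplasmic calcium pump in heart and smooth muscle, read 12.13 to 13.41 in CoA, 10.59 to 11.90 in Control and 11.14 to 12.45 in Corrected, a difference of 1.02 (SE 0.42; exact permutation p = 0.0667), and 3 of its 7 probes passed. Its call was lost without Control replicate 1, 3 or 4, CoA replicate 2 (0.71) or Corrected replicate 1. How far muscle RNA from outside the wall bore on TNNC1 and PLN was not tested.

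Among the genes that fell, SULT3A1 had the largest difference. SULT3A1, a sulfotransferase that acts on amines, was the 1 named gene that fell with all 4 CoA arrays below all 7 others. Its log2 signal was 2.06, 2.89, 3.93 and 4.31 in CoA, 5.89, 7.14, 8.02 and 8.33 in Control and 8.96, 5.04 and 4.34 in Corrected. CoA replicate 4 was below Corrected replicate 4 by a small margin only, and the signal was well above background on 1 of the 4 CoA arrays and on all 7 others. The probe thus passed the detection filter mainly through the pooled group, where it was high. Most of its CoA values were not well above background, so the size of the fall is uncertain. The difference was -3.52 (SE 0.86; exact permutation p = 0.00909). The call held under every alternative run, but the difference was -1.42 with normexp background correction. Corrected minus Control was -1.23 (95% interval -3.48 to 1.02), and the Corrected arrays ran from just above the CoA range to above the Control range.

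SRI, sorcin, a calcium-binding protein that damps ryanodine receptor opening, also fell. It read 6.58, 5.69, 6.75 and 6.41 in CoA, 8.88, 8.33, 6.73 and 6.87 in Control and 9.11, 8.46 and 8.53 in Corrected. CoA replicate 3 slightly exceeded Control replicate 3, and all other CoA arrays were below all 7. The difference was -1.77 (SE 0.47; exact permutation p = 0.0152), with 4 of 4 probes called between -1.82 and -1.38, and it did not pass with array weights (-0.92). Here Corrected was on the far side of Control from CoA, by 1.00 (95% interval -0.15 to 2.14), and CoA was lower than Corrected by more than it was than Control (-2.34 against -1.35).

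The hemoglobin transcripts and an enzyme of red cells fell as well. HBA, alpha globin, read 11.41, 14.13, 15.72 and 15.62 in CoA, 17.82, 16.84, 17.85 and 17.85 in Control and 17.61, 15.51 and 16.04 in Corrected. All CoA arrays were below all Control arrays, and CoA replicates 3 and 4 were close to Corrected replicates 2 and 4. The fall was -2.85 (SE 0.78; exact permutation p = 0.00909) and it was -1.92 without CoA replicate 1. HBB2, a beta globin, read 14.87 and 15.11 on CoA replicates 1 and 2 but 17.55 and 17.50 on CoA replicates 3 and 4, where the other 7 arrays held 17.49 to 17.86. The fall of -1.39 (SE 0.49; exact permutation p = 0.0152) thus lay in CoA replicates 1 and 2, and it was lost without the first (-0.92) and also without the second. With arrays scaled to their 75th percentile in place of quantiles it was -0.73.

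BPGM, the red cell enzyme that makes bisphosphoglycerate and thereby sets the oxygen affinity of hemoglobin, read 12.11, 12.69, 13.02 and 13.47 in CoA, 13.27, 14.52, 15.06 and 15.20 in Control and 15.61, 13.33 and 13.56 in Corrected. Only CoA replicate 4 reached above the lowest Control array, and Control and Corrected overlapped. The fall was -1.54 (SE 0.49; exact permutation p = 0.0242), it held under every alternative run, and Corrected minus Control was -0.35 (95% interval -1.71 to 1.01). HP, haptoglobin, the plasma protein that binds free hemoglobin, fell by 1.27 (SE 0.52; exact permutation p = 0.0667), and Control and Corrected differed by 0.04. The call of HP was lost in 7 of the 11 fits that left out an array, at -1.27 to -1.06, and stood without Control replicate 2, CoA replicate 3 or Corrected replicate 2 or 4. Both erythroid markers on the array with a tested probe fell, and their summed signal was 32698 to 245391 in CoA, 318802 to 475259 in Control and 230247 to 403393 in Corrected. In ring RNA, fewer cells of a type and less RNA per cell cannot be told apart, and the amount of blood left in the rings was not recorded in the labels. Near-identical globin copies may share a probe.

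ADIPOQ, TIMP4, PPARG, THRSP and PTGER3 fell, with the Corrected mean between the other means. ADIPOQ, adiponectin, the hormone that adipocytes secrete, read 1.45, 3.35, 5.89 and 3.36 in CoA, 6.01, 4.94, 7.44 and 7.64 in Control and 7.27, 4.72 and 4.06 in Corrected. CoA replicate 3 lay among the Control arrays and the other 3 CoA arrays lay below all 7. The ADIPOQ probe was dim, and it was detected neither on all CoA arrays nor on all pooled arrays. The fall was -2.50 (SE 0.88; exact permutation p = 0.0424), it was -1.81 and did not pass without CoA replicate 1 and was -3.29 without CoA replicate 3, and it was -0.77 with normexp background correction. TIMP4, an inhibitor of matrix metalloproteinases that fat and heart also make, read 5.60, 6.57, 8.58 and 7.54 in CoA, 9.66, 7.99, 11.31 and 11.38 in Control and 10.87, 8.13 and 8.24 in Corrected. CoA replicate 3 overlapped the lower Control and Corrected arrays. The difference was -2.58 (SE 0.81; exact permutation p = 0.0303), and Corrected minus Control was -1.01 (95% interval -3.17 to 1.15).

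PPARG, the nuclear receptor that drives fat cell formation and is also active in vascular smooth muscle, read 5.22, 7.53, 9.15 and 7.46 in CoA, 11.44, 9.19, 10.68 and 10.76 in Control and 9.72, 8.62 and 6.32 in Corrected. CoA lay below all Control arrays but overlapped Corrected. Against the pooled group the difference was -2.19 (SE 0.93; exact permutation p = 0.0697). It was -3.17 against Control and -0.88 against Corrected, and Corrected minus Control was -2.29 (95% interval -4.40 to -0.19). THRSP, a regulator of fatty acid synthesis, fell by 2.05 and PTGER3, a receptor for prostaglandin E2 found in vessels and fat, fell by 1.89 on its brightest probe. Its other 2 probes fell by 3.76 and 3.52, with Corrected minus Control at -0.33 and -0.21, so that only the brightest probe had Control and Corrected over 2-fold apart. The call of PTGER3 was lost without CoA replicate 1 (-1.04), and the difference was -2.64 without CoA replicate 3. The calls of PPARG and THRSP did not hold without Control replicate 1, 3 or 4, without CoA replicate 1, 2 or 4 or without Corrected replicate 1, where PPARG gave -2.25 to -1.48 and THRSP -1.92 to -1.35. Without CoA replicate 3 they passed at -2.79 and -3.06.

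Of the 5 adipocyte markers tested, ADIPOQ and PPARG fell and none rose, and their median difference was -1.23. The other members gave -1.23 for LPL, -1.22 for SLC2A4 and 0.06 for LEP. The summed signal of the list was 1202 to 11242 in CoA, 10291 to 18257 in Control and 4476 to 14929 in Corrected, lowest on CoA replicate 1. How much the fat left on each ring bore on these genes was not tested.

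BSG, basigin, a membrane protein that partners lactate transporters and induces metalloproteinases, read 5.97, 5.39, 6.53 and 5.40 in CoA, 9.12, 5.38, 8.61 and 8.71 in Control and 8.57, 6.10 and 7.24 in Corrected. Control replicate 2 was lower than every CoA array and apart from the other 3 Control arrays. The difference was -1.85 (SE 0.69; exact permutation p = 0.0515), and it did not pass without CoA replicate 2 or CoA replicate 4 (-1.71 each). PEBP1, an inhibitor of Raf kinase signaling, read 7.12 to 8.46 in CoA, 8.18 to 10.09 in Control and 8.76 to 9.76 in Corrected, with CoA replicate 1 (8.46) alone inside the Control range. It fell by 1.21 (SE 0.37; exact permutation p = 0.0152), Control and Corrected differed by 0.03 (95% interval -1.01 to 1.06), and without CoA replicate 2 the difference was -0.96.

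NXT2, a factor in RNA export from the nucleus, read 3.98, 1.27, 4.00 and 2.70 in CoA and 3.77 to 5.02 in the pooled group, and it was well above background on 1 of the 4 CoA arrays. Without CoA replicate 2 its difference of -1.45 (SE 0.47; exact permutation p = 0.0121) was -0.88, and with normexp it was -0.24. SPRR3, a small proline-rich protein of epithelia, read 12.05 to 13.40 in CoA, 13.81 to 14.63 in Control and 12.67 to 13.71 in Corrected. All Corrected arrays were thus also below all Control arrays, and Corrected minus Control was -1.06. Against the pooled group SPRR3 differed by -1.20 on its brightest probe (SE 0.39; exact permutation p = 0.0273), but its 5 probes ran from -1.20 to 0.85 and their median was above 0. VDAC3, a pore of the outer mitochondrial membrane, differed by -1.01, at the edge of the criterion, and did not pass without Control replicate 2, 3 or 4 or CoA replicate 3 or 4 (-0.96 to -0.87). Corrected minus Control was -0.87 for VDAC3, so that the means of both operated groups were below Control.

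**Figure D3:**
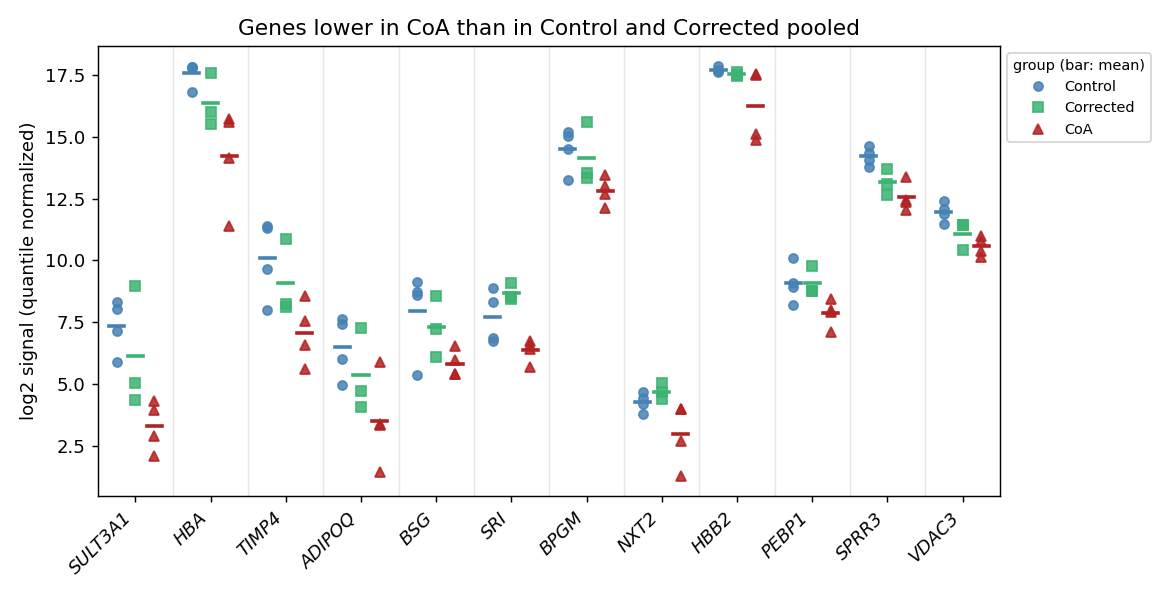
Quantile normalized log2 signal of the 12 named genes that fell in CoA, drawn as 1 point per array in each group (blue circles Control, green squares Corrected, red triangles CoA) with a bar at each group mean. SULT3A1 has all CoA points below the rest, HBB2 has 2 CoA points near 15 and 2 at the level of the other groups, and for ADIPOQ and TIMP4 the Corrected mean lies between the other means while the points of the 3 groups overlap.

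The remaining genes that fell had differences from -2.09 (DSG4, a desmosomal cadherin) to -1.01 (ADCY5, an adenylyl cyclase, and TNNI2, fast muscle troponin I). Enzymes of glycolysis were among them, with LDHA, lactate dehydrogenase A, at -1.48 (SE 0.59) on 5 of 5 probes between -1.54 and -1.47, ALDOA, an aldolase, at -1.26 and PGM1, phosphoglucomutase, at -1.09. The exact permutation p of these enzymes was 0.0606, 0.0939 and 0.0758. HMGB1, a chromatin protein that acts as a danger signal outside the cell, fell by 1.06 with 4 of 5 probes called. In the LDHA values, CoA read 9.78 to 11.12, Control 11.38 to 13.36 and Corrected 10.14 to 13.46, so that CoA was below all Control arrays and overlapped Corrected. Without CoA replicate 2 neither LDHA (-1.20) nor HMGB1 (-0.66) passed, and each was also lost without some of the pooled arrays, LDHA without Control replicate 1 (-1.27) or Corrected replicate 1 (-1.25).

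**Figure D4:**
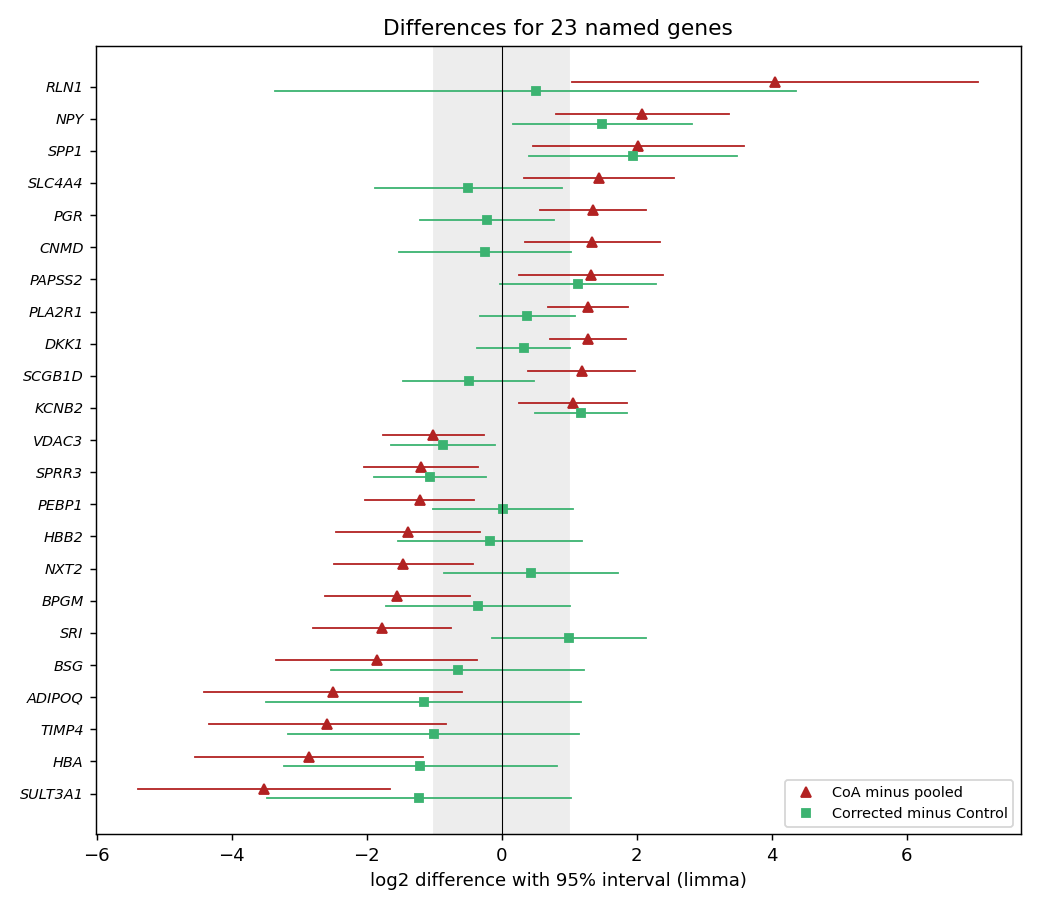
For each of 23 named genes, the red triangle is the log2 difference of CoA from the pooled group and the green square the log2 difference of Corrected from Control, each with its 95% interval from limma, and the grey band spans differences under 2-fold. The green intervals of all 23 genes reach past the band, those of DKK1 (-0.36 to 1.02) and PEBP1 (-1.01 to 1.06) by the least, and those of NPY, SPP1, KCNB2, SPRR3 and VDAC3 do not include 0.

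By scan time, Corrected replicate 2 shared a slide with Control replicates 1, 2 and 4, which gave 1 within-slide difference per gene. These arrays were among those by which the genes had been sorted into the sets below. The counts are therefore no separate check on slide. Of the 20 genes for which CoA stood apart from both groups, 16 were within 2-fold in that difference, the exceptions being RLN1 (2.52), BSG (-1.63), CNMD (-1.20) and BPGM (-1.01). Of the 16 genes with Control and Corrected over 2-fold apart, 12 were so within the slide in the same direction, among them SPP1 (2.15), PPARG (-1.84) and NPY (1.61), while KCNB2 (0.56) and TNNC1 (0.41) were not.

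Gene lists for the vessel wall gave few calls, and none held more than 3. The 2 pooled groups differed from each other on some lists. Over the pathway lists the median Corrected minus Control ran from -0.45 (growth factors and receptors) to 0.64 (contractile smooth muscle), beside 0.03 over all probes. The other values given for lists are of CoA vs the pooled group. Of 9 contractile smooth muscle genes tested none was called, and their median difference was -0.08, beside 0.04 over all probes. ACTA2 gave -0.09 and MYH11 -0.08. Of 12 collagen and proteoglycan genes, SPP1 rose and none fell (median 0.06), with 0.18 for COL1A2, a chain of type I collagen, -0.07 for DCN, decorin, and 0.69 for LUM, lumican. Of 9 matrix proteases and their inhibitors TIMP4 fell and none rose (median -0.26), with 0.67 for TIMP1 and 0.28 for MMP2.

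Of 21 pressor and relaxing genes, NPY rose and PTGER3 fell. Their median was 0.48, and 16 of the 21 were above 0. EDN1, the constrictor peptide endothelin, gave 0.48, AGTR1, the angiotensin II receptor, 0.51, and NOS3, the endothelial nitric oxide synthase, -1.03 with an exact permutation p of 0.115. Of 34 ion channel and calcium handling genes, KCNB2 and PLN rose, none fell, and 26 were above 0, with a median of 0.32. The median Corrected minus Control of these genes was 0.48. Over all 958 genes 5.11% were called and 51.8% were above 0. The list includes muscle genes such as RYR2, the ryanodine receptor of heart, which gave 1.40 with all arrays and 0.42 without CoA replicate 2. ATP2A2, the calcium pump that PLN restrains, gave 0.23.

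Of 21 cytokine and acute phase genes, IL1A rose and HP fell (median -0.21). IL1A, an alarm cytokine, read 7.83, 5.90, 5.79 and 8.80 in CoA, 3.89 to 5.97 in Control and 5.55 to 6.84 in Corrected. CoA replicates 1 and 4 were above all others, and CoA replicates 2 and 3 were inside the range of the pooled group. The difference was 1.55 (SE 0.69; exact permutation p = 0.0909), and it did not pass in 7 of the 11 fits that left out an array (each Control array, CoA replicate 1 or 4, or Corrected replicate 1), at 0.97 to 1.62.

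Of 18 glucose and lipid genes, LDHA and ALDOA fell and none rose (median -0.53), and GAPDH gave -1.19 with an exact permutation p of 0.0848. Of 10 growth factor and receptor genes, RLN1 and PGR rose and PPARG fell (median -0.18). No gene was called among 9 immediate early and stress genes (median -0.49) or 19 genes of xenobiotic and amine metabolism (median -0.03). Among cell type markers none was called for endothelium (7 tested), fibroblasts (3), granulocytes (5), T cells (2) or brown adipocytes (1). SPP1 was the 1 call among 10 macrophage markers, NPY was among the nerve markers that rose, and the 1 B cell marker tested, RAG2, rose by 1.16 (0.65 and not passing without CoA replicate 2). No cell division marker had a tested probe.

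**Figure D5:**
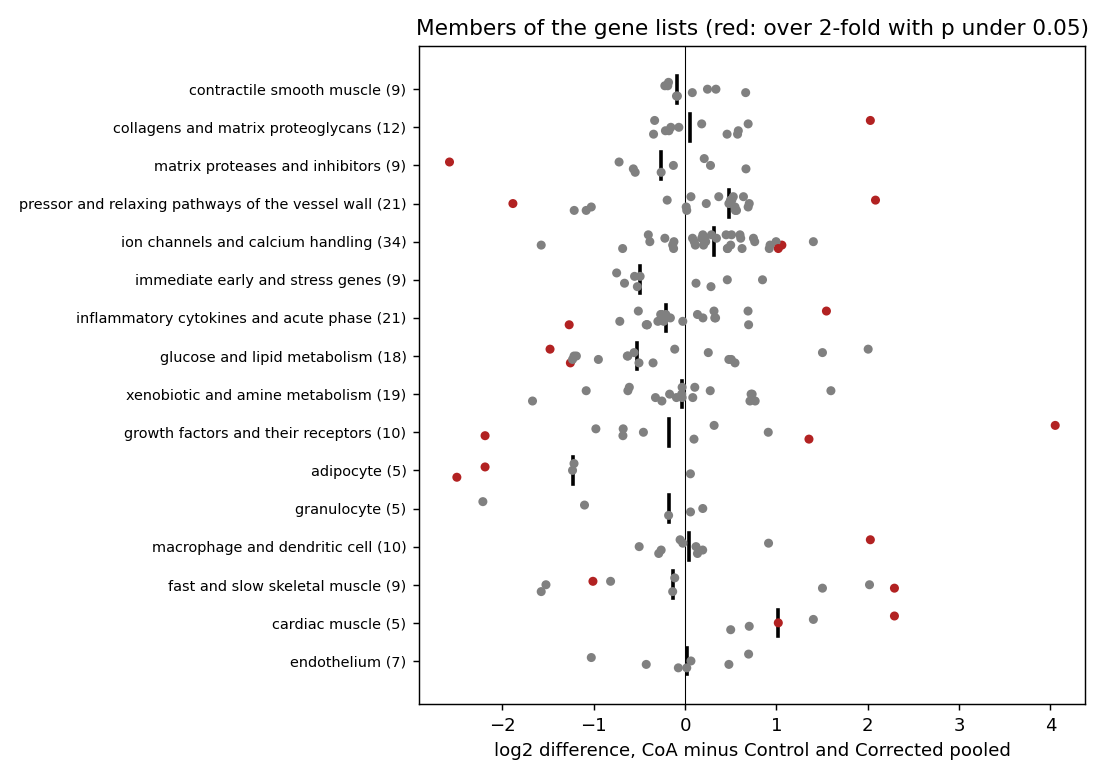
Each point is 1 gene of a list, at its log2 difference of CoA from the pooled group, with the number of genes tested in brackets and a vertical bar at the list's median; red points are over 2-fold with an unadjusted p under 0.05, and lists with fewer than 5 tested genes are not drawn. The medians lie between -0.53 and 0.48 for the pathway lists, at -1.23 for adipocyte and at 1.02 for cardiac muscle markers.

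INMT and HGF were higher in both operated groups than in Control and were not called against the pooled group. INMT, an amine N-methyltransferase, read 14.37 to 15.45 in CoA and 14.31 to 15.13 in Corrected, against 11.18 to 13.34 in Control. CoA and Corrected overlapped and both lay above every Control array. CoA minus Corrected was -0.06, Corrected minus Control was 2.90 (95% interval 1.77 to 4.03; exact permutation p = 0.0571), and the difference of CoA from the pooled group did not pass, though it did under 7 alternatives. HGF, hepatocyte growth factor, had a like pattern and passed under 3 alternatives, with 1.72 for Corrected minus Control and -0.07 for CoA minus Corrected. MYH1, a fast muscle myosin, and ATP2A1, the calcium pump of fast muscle, had another pattern, with their highest mean in Corrected, 2.82 and 1.82 above Control on the brightest probe. In CoA vs the pooled group these probes differed by -1.52 and -1.58 and did not pass, while a dimmer probe of each did, at -2.89 for MYH1 and -2.06 for ATP2A1. Without Corrected replicate 2 the brightest MYH1 probe gave -0.85, and that of ATP2A1 passed under 6 alternatives.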

How the data were processed

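The files that the authors deposited come from Agilent Feature Extraction 11.0.1.1, 1 for each 1-colour array. Its processed signal is a background-subtracted intensity that, per the file headers, was not normalized between arrays, and the deposited flags, of another kind than the intensities, mark saturated, outlier and well-above-background spots. The authors normalized by quantiles in GeneSpring and kept probes detected on 8 of 12 arrays. The same was done here on log2 processed signals, with outlier flags left out (8 to 22 spots per array) and spots of a probe averaged. No spot was saturated. For 43 probes an array was missing and the fit used the others. Symbols came from the RefSeq accession of the probe.

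CoA was compared with the pooled group in limma 3.58.1 (R 4.3.3, statmod 1.5.0), and Corrected with Control in a fit of 3 groups, with two-sided tests. Single genes were also tested by exact permutation (scipy 1.17.1, Python 3.11.15). The fits were also run on simulated data in which 200 probes had known changes. The simulated errors were independent and normal with 1 spread per probe, so no array stood apart as some did here. The number of arrays limits the precision.

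A gene stands by its tested probe with the highest mean. Named were genes over 2-fold with an unadjusted p under 0.05 and all CoA arrays outside the range of the others (up to 12 per direction, filled by p), the 3 with the largest gap between Control and Corrected, members of the lists and genes that the paper names. Other genes over 2-fold were named after their values were seen. The members and lists were chosen with earlier results of these data known. Some genes are not reported here.

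Alternatives were other sets of arrays, array weights, scalings, background correction, detection filters and models, slide and replicate blocks, and each array left out in turn.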

Additional observations from a re-analysis of the deposited data

Results flagged for a closer look

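BSG on Control replicate 2 had a log2 signal of 5.38, far from the next Control array at 8.61, a gap of 0.862 of the range of that group. HBA on Control replicate 2 read 16.84 against 17.82 on the next array, a gap of 0.963 of the range. These were 2 of 52 such checks in groups of 4 arrays, and chance flags about 1 in 20.

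The detection filter left out 16 probes that were detected on all 7 pooled arrays and on none of the 4 CoA arrays, and 7 more of this kind were tested. No probe was detected on all 4 CoA arrays and on none of the 7. Among the 16 was another probe of SULT3A1. It was not well above background on any CoA array, had a mean log2 signal of 6.84 in the pooled group and 3.10 in CoA, and was at least 8.65-fold higher in the pooled group, with no test. A probe of MYH1 was likewise at least 5.52-fold higher in the pooled group, and its Corrected arrays (6.56 to 10.83) were above its Control arrays (3.60 to 5.37). The floor for both was, on each array, the lowest signal well above background or the signal of the probe itself where that was higher.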

How the results depend on the processing

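The count of 1249 probes over 2-fold was 735 with all 12 arrays, 3866 with array weights, 338 with normexp, 2068 without a detection filter, 540 with detection on all 12 arrays and 827 without moderated variances. Leaving out 1 array gave 801 (without CoA replicate 2) to 2033 (without CoA replicate 3), and it gave 2021 without Corrected replicate 4 as against 824 without Control replicate 4. The 589 probes apart from both groups were 368, 1046, 129, 1037 and 199 under the first 5 of these settings and 278 (without Corrected replicate 1) to 1101 (without CoA replicate 3) with 1 array left out, among them 386 when CoA replicate 2 and 1083 when Corrected replicate 4 was left out. The 322 probes outside the range of the 7 arrays were 159 with all 12 arrays, 640 without a filter, 197 with detection on all 12 arrays, 1739 without CoA replicate 2 and Corrected replicate 4 together, and 339 to 1162 with 1 array left out (502 without Control replicate 2, 552, 714 and 898 without CoA replicates 1, 2 and 3, and 541 and 1162 without Corrected replicates 2 and 4). The 1471 probes of Corrected vs Control were 2851 with all 12 arrays, 957 without CoA replicate 2 and Corrected replicate 4, 2289 with array weights, 584 with normexp, 2428 without a filter, 786 with detection on all 12 arrays and 764 to 2404 with 1 array left out (2404, 2363 and 764 without Corrected replicates 1, 2 and 4). At an adjusted p under 0.05 in limma, CoA vs the pooled group had 6626 probes with array weights, 1 without CoA replicate 2 and Corrected replicate 4 and 0 to 2 with 1 array left out, and Corrected vs Control had 0 to 1. Averaging Control replicates 3 and 4 gave 840 probes over 2-fold, and dropping both CoA replicate 2 and Corrected replicate 4 gave 1217. The causes were not tested. Scaling to the 75th percentile moved the median of all probes to 0.15 and the share of higher calls from 43.0% to 49.1%, and with detection on all 12 arrays it was 55.2%.

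Replicate numbers did not pair the samples (same-number correlations -0.445 to 0.448 in 10 pairs). A replicate block gave 1726 probes over 2-fold and 954 apart from both groups, and 48 of the 49 genes passed. With slide as a random block 49 passed. The CoA arrays shared a slide with no other group, so this block cannot separate slide from coarctation. With normexp 22 passed, with all 12 arrays 28, with Control replicates 3 and 4 as 1 sample 31, and without CoA replicate 2 24. BPGM, CNMD, HBA, PLA2R1 and SULT3A1 passed under every alternative run. SPRR3 turned to 0.42 as the median over its probes, and CKM (positive, not called) turned to -1.04 without CoA replicate 2 and Corrected replicate 4. Of the 49 genes, 16 had a mean log2 signal under 6.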
